A study of Mus with 21 samples.

Results

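Histone-modifying enzymes were followed through the transcriptomes of embryonic mouse brains that carried reduced doses of *Nipbl*, *Wapl* or both. The genes were chosen by name as the rows of the count table for 56 enzymes of 6 classes. The classes were methyltransferases of histone H3 lysine 4 (7 genes), methyltransferases of lysines 9 and 27 (8 genes), methyltransferases of lysines 36 and 79 with related SET-domain proteins (6 genes), demethylases (16 genes), acetyltransferases (9 genes) and deacetylases (10 genes). All 56 were found among the 55335 genes listed, and all 56 were among the 30552 genes that passed the filter on low counts and were tested.

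Histone methyltransferases and acetyltransferases write chemical marks on histones, and demethylases and deacetylases erase them. Methylation of H3 lysine 4 and acetylation mark active promoters and enhancers, methylation of lysines 9 and 27 marks silent chromatin, and methylation of lysines 36 and 79 follows transcribed gene bodies. Many of these enzymes are dosage sensitive in people, and loss of 1 copy of *KMT2D*, *EHMT1*, *NSD1*, *KAT6A*, *CREBBP* or *EP300* is known to cause a developmental syndrome with intellectual disability.

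Each of the 21 libraries was made from polyadenylated RNA of 1 female C57BL/6J brain, taken whole at E17.5. They came from 5 WT embryos (*Wapl*+/+; *Nipbl*+/+), 3 *Nipbl*+/- embryos with an intact pair of *Wapl* copies, 7 *Wapl*Δ/+ embryos with an intact pair of *Nipbl* copies, and 6 double heterozygotes. Cohesin is the ring-shaped complex that extrudes chromatin loops, and its time on DNA depends on both proteins, NIPBL being needed for loading and WAPL for release. The comparisons ask how the transcriptome responds to a lower dose of either protein and of both together. The *Wapl*Δ allele lacks the promoter and the first exons and came from *E2a-Cre* recombination of a floxed allele, and the *Nipbl* mutation came from a floxed allele recombined in the male germ line by *Stra8-icre*. Both alleles are constitutive, so every cell of the brain carried them, and the labels do not say which embryos shared a litter. *P* values therefore measure the spread between these libraries.

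Total counts ranged from 25682566 to 35818767 per library, with a median of 31830396, and the 56 enzymes took between 0.592% and 0.686% of them. The lowest count of any of these genes in any library was 96, for *Setdb2*, and the next lowest gene was *Suv39h2* with at least 236 counts, so counting error was small for most of them. Markers of neurons, progenitors and glia were present in all libraries, while the pituitary markers *Gh* and *Prl* were at 0 in 14 libraries each. *Nipbl* stood at 54.3% ± 4.52 (SD, n = 3) of its WT level in *Nipbl*+/- brains and at 54.8% ± 1.79 (SD, n = 6) in double heterozygotes, and *Wapl* stood at 46.7% ± 4.51 (SD, n = 7) in *Wapl*Δ/+ brains and at 49.3% ± 1.90 (SD, n = 6) in double heterozygotes. The mitochondrial gene *mt-Nd3* had 52 to 106 counts in 9 libraries (WT replicates 4 and 5, *Wapl*Δ/+ replicates 3 to 7, double-heterozygote replicates 5 and 6) and 0 to 6 counts in the other 12, so comparisons are also given within these sets. The labels write the *Wapl* deletion first in *Wapl*Δ/+ replicates 1 and 2 and double-heterozygote replicates 1 to 4, and second in the other libraries of these groups. They do not say whether this order marks the cross or the parent of origin, and here it coincides with the low and high *mt-Nd3* sets, so the 2 splits cannot be told apart. Among the enzymes 2 libraries stood apart from their groups, double-heterozygote replicate 5 and *Wapl*Δ/+ replicate 2, and results that rest on them are given with and without them. Both were picked out by values of the enzymes tested, so fits without them favour the called differences and are descriptions.

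All values below are normalized counts, which are counts divided by a library size that the TMM method of edgeR had adjusted, unless a log2 fold change is named. A gene was called when the Benjamini-Hochberg adjusted *P* of edgeR's quasi-likelihood test, taken over all 30552 genes, was below 0.10. Counts depend on transcript length, so levels are compared between genotypes and not between genes. In whole brain, fewer cells of a type that expresses an enzyme and less of its RNA per cell cannot be told apart.

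The heat map of the log2 ratio of each library to the WT mean gives the pattern across all 56 genes. Most enzymes differed little between libraries. The coefficient of variation among the 5 WT libraries had a median of 4.14% over the 56 genes, with the lowest value for *Ehmt1* (1.03%) and the highest for *Kat6a* (13.7%). Its median was 4.71% in *Nipbl*+/- brains, 5.61% in *Wapl*Δ/+ brains and 5.85% in double heterozygotes. The highest value in the mutants belonged to *Ep300* in *Nipbl*+/- (15.2%), to *Kat6a* in *Wapl*Δ/+ (20.9%) and to *Kmt2d* in double heterozygotes (18.3%).

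**Figure D1:**
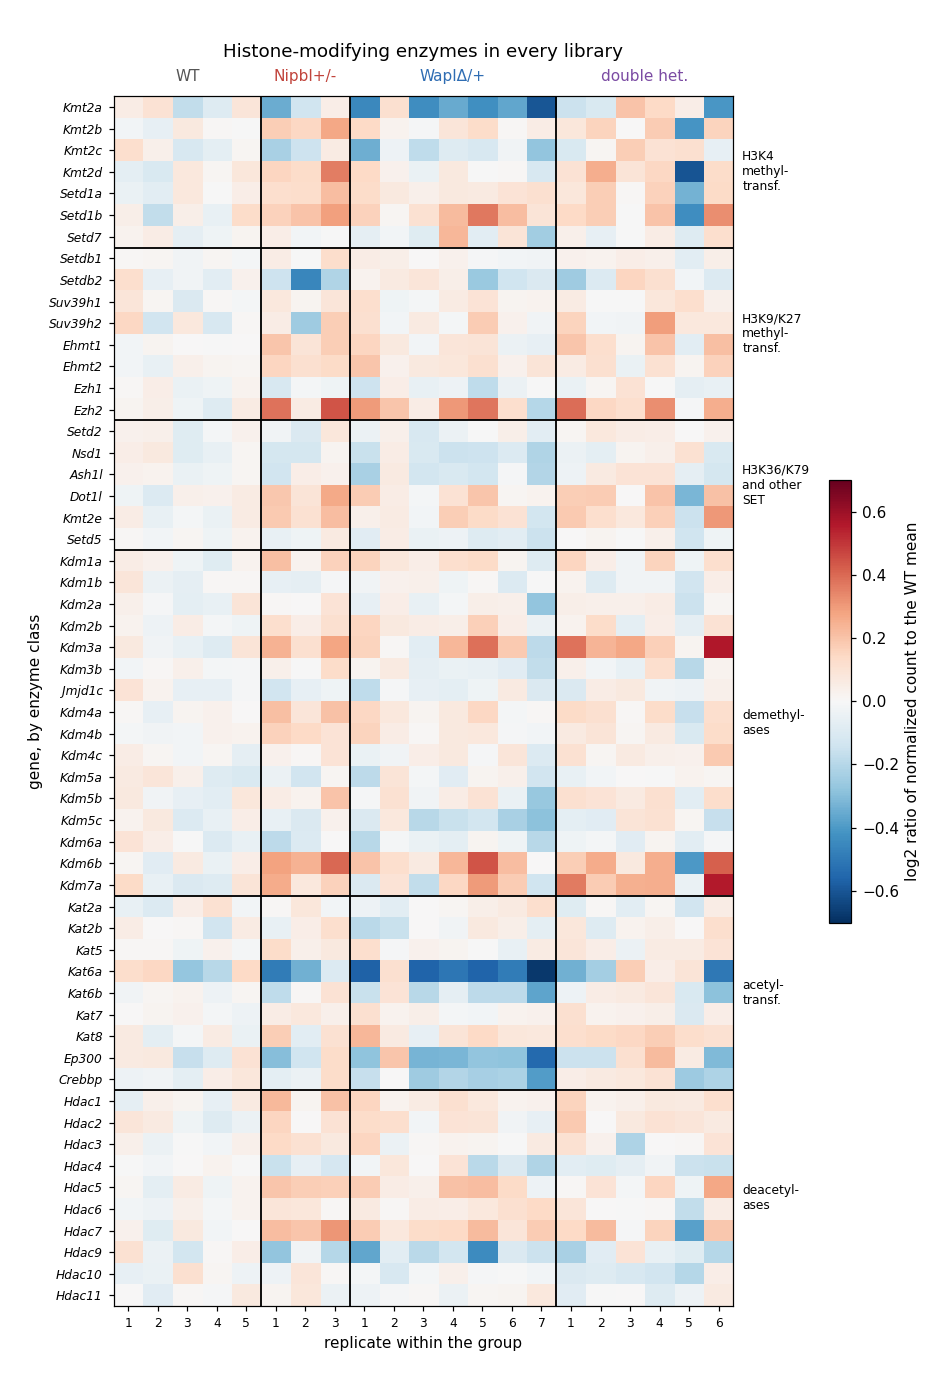
Log2 ratio of the normalized count to the WT mean for the 56 genes (rows, by enzyme class) in the 21 libraries (columns, by group and replicate), with red above and blue below the WT mean. *Kat6a* and *Kmt2a* were below the WT mean in 6 of 7 *Wapl*Δ/+ libraries, and double-heterozygote replicate 5 was the lowest library for *Kmt2d*, at a log2 ratio of -0.60.

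Class sums were taken in CPM, the count scaled to a common library size. For the 8 lysine 9 and 27 methyltransferases the sum was 744 ± 3.56 CPM (SD, n = 5) in WT, 809.9 ± 27.4 (n = 3) in *Nipbl*+/-, 777 ± 27.6 (n = 7) in *Wapl*Δ/+ and 785 ± 34.1 (n = 6) in double heterozygotes. The *Nipbl*+/- libraries (778 to 829.2) and the *Wapl*Δ/+ libraries (749.5 to 825) lay above the WT libraries (739 to 749.0), the latter by a narrow margin, and the double heterozygotes (736 to 819) overlapped them. With total counts in place of TMM sizes, the double heterozygotes (748.7 to 818.4) lay above WT (729.4 to 746.7) too. Their overlap thus depended on the scaling. Deacetylases summed to 949.7 ± 16.8 (SD, n = 5) in WT and to 1014 ± 10.6 (n = 3) in *Nipbl*+/-, and the 2 groups did not overlap, with a highest WT value of 965 and a lowest *Nipbl*+/- value of 1005. Demethylases summed to 1722 ± 34.9 (SD, n = 5) in WT, 1849 ± 69.2 (n = 3) in *Nipbl*+/-, 1755 ± 89.0 (n = 7) in *Wapl*Δ/+ and 1791 ± 104 (n = 6) in double heterozygotes.

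Acetyltransferases had lower mean sums in the mutants. Their sum was 778 ± 27.03 (SD, n = 5) CPM in WT, 752 ± 51.8 (n = 3) in *Nipbl*+/-, 698 ± 53.0 (n = 7) in *Wapl*Δ/+ and 765 ± 51.5 (n = 6) in double heterozygotes. A single *Wapl*Δ/+ library reached 811, above the WT range of 740.4 to 806. Not all genes of the class were lower. Log2 fold changes were positive for 6 of 9 genes in *Nipbl*+/-, 4 in *Wapl*Δ/+ and 4 in double heterozygotes. Their medians were 0.017, -0.041 and -0.014 in the same order. *Kat6a* had the lowest value of the 9 in each group (-0.31, -0.44 and -0.10). Lysine 4 methyltransferases gave 1082 ± 28.3 in WT, 1158 ± 84.5 in *Nipbl*+/-, 1054 ± 46.6 in *Wapl*Δ/+ and 1105 ± 107 in double heterozygotes (SD, same n), and the double-heterozygote range of 899 to 1198 contained the whole WT range. These sums were not tested.

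*Nipbl*+/- brains had the most called members. Of the 56 enzymes, 18 rose and 2 fell against WT, and 36 were not called. Over all 30552 genes tested, 11.2% were called in the same comparison, 4.25% higher and 6.96% lower. The 18 of 56 called higher are a larger share than this background, and the 2 of 56 called lower a smaller share. The median SE was 0.043 over the members and 0.15 over all tested genes, so a change of a given size was called more readily among members. The 56 genes were also chosen with earlier results of these data known, so the shares are descriptions. All increases were small, with log2 fold changes between 0.10 and 0.31, and none of the 56 genes reached a 2-fold change. The median log2 fold change was 0.05 over the 56 genes and -0.0086 over all tested genes. At an unadjusted *P* below 0.05, 20 members were higher and 4 lower, against 8.47% and 11.6% of all genes. The *Nipbl*+/- libraries lay wholly above the WT libraries for 18 members and wholly below them for 2 (*Setdb2* and *Hdac4*), where 6.54% and 6.9% of all genes did so.

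**Figure D2:**
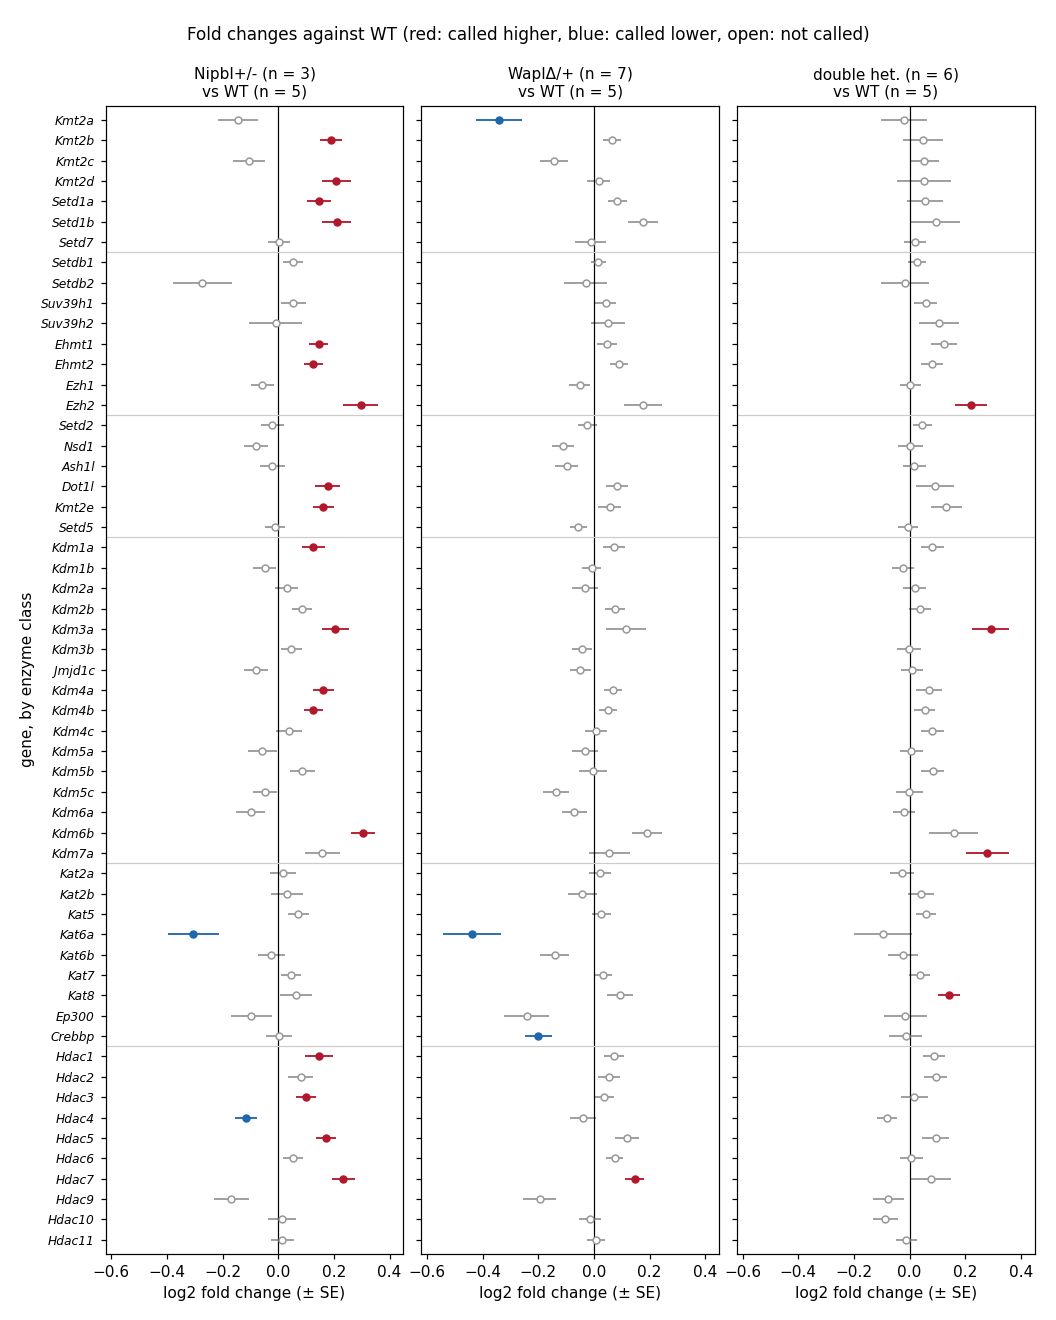
Log2 fold change against WT (point) with its standard error (bar) for the 56 genes, by enzyme class, in *Nipbl*+/- (left), *Wapl*Δ/+ (middle) and double-heterozygote brains (right). Filled red points were called higher, filled blue points lower and open points were not called, which gives 18 higher and 2 lower, 1 higher and 3 lower, and 4 higher and none lower.

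Of the methyltransferases of H3 lysine 4, 4 of 7 rose in *Nipbl*+/- brains and none fell. *Kmt2b* (chromosome 7, 30568855 to 30589056 on GRCm38), which encodes an MLL-family enzyme that methylates lysine 4 at promoters, had normalized counts of 5666, 5529.6, 6016, 5781 and 5729 in WT and 6472, 6340.1 and 6934 in *Nipbl*+/-. All 3 mutant libraries lay above all WT libraries. Its mean was 5744 ± 179 (SD, n = 5) in WT and 6582 ± 312 (SD, n = 3) in *Nipbl*+/-, a log2 fold change of 0.19 ± 0.0393 (SE; edgeR adjusted *P* = 0.00541). *Kmt2d*, whose product places monomethyl marks on enhancers, rose by 0.21 ± 0.0532, with WT libraries between 8323 and 9479.5 and *Nipbl*+/- libraries at 9948, 9804 and 11502. *Setd1a* and *Setd1b*, which encode the catalytic subunits of the COMPASS complexes that trimethylate lysine 4, rose by 0.15 ± 0.0422 and 0.21 ± 0.0520 on the log2 scale. *Setd7*, a monomethyltransferase with many targets that are not histones, stood at 0.00422 ± 0.0392, and *Kmt2a* and *Kmt2c* had negative estimates (-0.14 ± 0.0714 and -0.10 ± 0.0575) that were not called. *Kmt2d* lost its call without *Nipbl*+/- replicate 3, and *Setd1a* lost it without that library or without WT replicate 2.

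Among the lysine 9 and 27 methyltransferases 3 of 8 rose and none fell. *Ezh2* (chromosome 6, 47530274 to 47595270), the catalytic subunit of Polycomb repressive complex 2 in dividing cells, had normalized counts of 2152, 2187, 2079, 1998 and 2212 in WT and 2769.6, 2213 and 2885 in *Nipbl*+/-. *Nipbl*+/- replicate 2 lay at the top of the WT range, while replicates 1 and 3 were far above it. The means were 2126 ± 87.0 (SD, n = 5) and 2623 ± 359 (SD, n = 3), a log2 fold change of 0.30 ± 0.0627 (SE; edgeR adjusted *P* = 0.00639), and the call held without any single library. *Ehmt1* and *Ehmt2*, which encode the partners GLP and G9a that place mono- and dimethyl marks on lysine 9, rose by 0.14 ± 0.0354 and 0.13 ± 0.0346. *Ehmt1* was the steadiest enzyme in WT, between 4118 and 4238, and the 3 *Nipbl*+/- libraries lay at 4769, 4443 and 4699. The genes for the trimethylating enzymes of heterochromatin were not called, with log2 fold changes of 0.05 ± 0.0363 for *Setdb1*, 0.05 ± 0.0452 for *Suv39h1* and -0.0088 ± 0.0948 for *Suv39h2*. *Setdb2* had the lowest counts of all members, 152, 134, 137, 133 and 143 in WT and 126, 102 and 121 in *Nipbl*+/-, and although the groups did not overlap its difference of -0.27 ± 0.106 was not called (edgeR adjusted *P* = 0.138).

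In the class of lysine 36 and 79 methyltransferases and related proteins 2 of 6 rose. *Kmt2e*, which encodes an MLL-family protein whose SET domain is thought to lack catalytic activity, had 8306, 7733, 7925, 7742 and 8332 normalized counts in WT and 9082, 8619 and 9299 in *Nipbl*+/-, with no overlap between the groups. Its mean was 8008 ± 295 (SD, n = 5) in WT and 9000.2 ± 347 (SD, n = 3) in *Nipbl*+/-, a log2 fold change of 0.16 ± 0.0380 (SE; edgeR adjusted *P* = 0.0124). *Dot1l*, the lysine 79 methyltransferase, rose by 0.18 ± 0.0438 (edgeR adjusted *P* = 0.0169), with *Nipbl*+/- libraries at 6067, 5680.1 and 6417 and a highest WT library at 5539.6. The lysine 36 enzymes *Setd2*, *Nsd1* and *Ash1l* were not called, with log2 fold changes of -0.02 ± 0.0426, -0.08 ± 0.0439 and -0.02 ± 0.0435, nor was the SET-domain gene *Setd5* (-0.01 ± 0.0362).

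Demethylases had the most genes called higher of any class, 5 of 16, and none lower. *Kdm6b* (chromosome 11, 69398508 to 69420367), which encodes the inducible eraser of lysine 27 trimethylation JMJD3, had the smallest *P* value of all 56 genes. Its normalized counts were 5473, 5132, 5672, 5254 and 5614 in WT and 6611, 6428 and 7173 in *Nipbl*+/-, so the lowest mutant library stood well above the highest WT library. The means were 5429 ± 231 (SD, n = 5) and 6737 ± 388 (SD, n = 3), a log2 fold change of 0.31 ± 0.0427 (SE; edgeR adjusted *P* = 0.000296). Its paralogue *Kdm6a*, which is X-linked, stood at -0.10 ± 0.0517 and was not called. *Kdm3a*, an eraser of lysine 9 mono- and dimethylation, had 2062, 1932, 1893, 1846 and 2087 in WT and 2323, 2119.8 and 2379.9 in *Nipbl*+/-, a log2 fold change of 0.21 ± 0.0476 (SE; edgeR adjusted *P* = 0.0118), and here too the groups did not overlap.

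*Kdm4a* and *Kdm4b*, erasers of lysine 9 and 36 trimethylation, rose by 0.16 ± 0.0374 and 0.13 ± 0.0344. *Kdm4a* had 6130.4, 5847, 6176, 6212 and 6104 normalized counts in WT and 7056, 6471 and 7021 in *Nipbl*+/-, without overlap (edgeR adjusted *P* = 0.0112). *Kdm1a*, the lysine 4 demethylase LSD1, rose by 0.13 ± 0.0427, but *Nipbl*+/- replicate 2 (5748) lay within the WT range and its call was lost in 6 of 8 fits that left out 1 library (all but those without WT replicate 1 or *Nipbl*+/- replicate 2). *Kdm4b* lost its call without *Nipbl*+/- replicate 1. The remaining 11 demethylases had log2 fold changes between -0.10 (*Kdm6a*) and 0.16 (*Kdm7a*).

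The acetyltransferases were the class with no increase, and 1 of 9 fell. *Kat6a* (chromosome 8, 22859442 to 22943259), which encodes the MOZ acetyltransferase of histone H3, had normalized counts of 5047, 5117, 3839, 4042 and 5111 in WT and 3292, 3664 and 4336 in *Nipbl*+/-. WT replicates 3 and 4 lay well below the other 3 WT libraries and within the *Nipbl*+/- range. The means were 4631 ± 635 (SD, n = 5) and 3764 ± 529 (SD, n = 3), a log2 fold change of -0.31 ± 0.0919 (SE; edgeR adjusted *P* = 0.0491), and the call was lost without WT replicate 1, 2 or 5 or *Nipbl*+/- replicate 1, without the high *mt-Nd3* libraries and in DESeq2. The coactivator acetyltransferases *Ep300* and *Crebbp* stood at -0.10 ± 0.0740 and 0.0019 ± 0.0474 and were not called. The remaining 6 lay between -0.02 (*Kat6b*) and 0.07 (*Kat5*).

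Deacetylases gave 4 increases and 1 decrease among 10 genes. *Hdac7* (chromosome 15, 97792661 to 97844502), a class IIa deacetylase that shuttles between nucleus and cytoplasm, had 3602, 3321, 3689, 3483 and 3525 normalized counts in WT and 4093, 4035 and 4365 in *Nipbl*+/-. Every mutant library exceeded every WT library. The means were 3524 ± 138 (SD, n = 5) and 4164 ± 176 (SD, n = 3), a log2 fold change of 0.23 ± 0.0403 (SE; edgeR adjusted *P* = 0.00145). *Hdac5*, of the same class IIa, had 4414, 4178, 4553, 4280.2 and 4451 in WT and a narrow range in *Nipbl*+/-, at 4998, 4925 and 4912, a log2 fold change of 0.17 ± 0.0363 (SE; edgeR adjusted *P* = 0.00657).

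The other two class IIa genes had negative estimates. *Hdac4* fell by 0.12 on the log2 scale (SE 0.0394, edgeR adjusted *P* = 0.0869), from 1769.9 ± 19.3 (SD, n = 5) to 1640.4 ± 56.3 (SD, n = 3), and all 3 mutant libraries lay below all WT libraries. That call was lost in 7 of 8 fits that left out a library (all but the one without *Nipbl*+/- replicate 2), and a correction for gene span turned its estimate to 0.010. *Hdac9* stood at -0.17 ± 0.0629 and was just outside the threshold (edgeR adjusted *P* = 0.120). Of the class I genes, *Hdac1* and *Hdac3* rose by 0.15 ± 0.0502 and 0.10 ± 0.0352, and *Hdac2* stood at 0.08 ± 0.0439 without a call. *Hdac3* was just inside the threshold (edgeR adjusted *P* = 0.0996). Each of *Hdac1* and *Hdac3* lost its call in 6 of 8 fits without a library, where *Hdac1* kept it without WT replicate 5 or *Nipbl*+/- replicate 2, and *Hdac3* without WT replicate 1 or *Nipbl*+/- replicate 3.

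The count of 20 called enzymes ranged from 14 to 22 when single libraries were left out. All 3 *Nipbl*+/- libraries belonged to the low *mt-Nd3* set. Within that set, against WT replicates 1 to 3 alone, 12 enzymes were called and all were higher, namely *Kmt2b*, *Kmt2d*, *Setd1b*, *Ezh2*, *Dot1l*, *Kmt2e*, *Kdm3a*, *Kdm4a*, *Kdm4b*, *Kdm6b*, *Hdac5* and *Hdac7*. That fit called 6.16% of all genes, 1.79% higher. With the set as a term in the fit 15 were called, all higher (7.94% of all genes called, 2.53% higher). A single fit of all 4 groups called 9, all higher (5.43% of all genes called, 2.48% higher), and DESeq2 called 19, all higher (11.5% of all genes called, 5.03% higher).

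*Wapl*Δ/+ brains had fewer called members. Of the 56 enzymes 1 rose, 3 fell and 52 were not called, where 2.22% of all tested genes were called, 0.769% higher and 1.45% lower. All 4 calls had edgeR adjusted *P* values between 0.0514 and 0.0575, so none was called at a threshold of 0.05. The median log2 fold change was 0.02 over the members and -0.0034 over all genes. At an unadjusted *P* below 0.05, 9 members were higher and 10 lower, against 7.52% and 8.12% of all genes.

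*Kat6a* showed the largest difference of any enzyme in any comparison with WT. Its normalized counts in *Wapl*Δ/+ ran between 2902 and 4998 (median 3145, n = 7), against 5047, 5117, 3839, 4042 and 5111 in WT. In 6 of 7 *Wapl*Δ/+ libraries *Kat6a* lay below the lowest WT library, at 3295 or less, and replicate 2 lay apart at 4998, within the upper WT range. The means were 4631 ± 635 (SD, n = 5) and 3408 ± 712 (SD, n = 7), a log2 fold change of -0.44 ± 0.103 (SE; edgeR adjusted *P* = 0.0563). *Kmt2a* (chromosome 9, 44803355 to 44881352), which encodes the founding MLL methyltransferase of lysine 4, had a like profile. Its counts ran between 4887 and 7987 (median 5485, n = 7) in *Wapl*Δ/+ against 7673, 7932, 6565, 6936 and 7847 in WT, with replicate 2 above every WT library and the other 6 below every WT library. The log2 fold change was -0.34 ± 0.0823 (SE; edgeR adjusted *P* = 0.0575).

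*Crebbp* (chromosome 16, 4081334 to 4213957), which encodes the coactivator CBP that acetylates H3 lysine 27, ran between 2847 and 3732 (median 3190.2, n = 7) in *Wapl*Δ/+ and had 3629, 3657, 3555, 3855 and 3936 in WT. Its log2 fold change was -0.20 ± 0.0477 (SE; edgeR adjusted *P* = 0.0574), and again replicate 2 (3732) was the highest and the other 6 lay below the WT range. The related *Ep300* had its 6 other *Wapl*Δ/+ libraries at 2977 or less, below the lowest WT library at 3221, and replicate 2 at 4121, above all WT libraries, and its difference of -0.24 ± 0.0816 was not called (edgeR adjusted *P* = 0.156). *Hdac7* was the single enzyme that rose. It ran between 3709 and 4102 (median 3879.6, n = 7) in *Wapl*Δ/+, above the highest WT value of 3689 in all 7 libraries, a log2 fold change of 0.15 ± 0.0342 (SE; edgeR adjusted *P* = 0.0514). It was the only member whose *Wapl*Δ/+ and WT libraries did not overlap, where 0.733% of all genes lay wholly above WT and 0.471% wholly below it.

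The 4 calls depended on single libraries of both groups. None was left without WT replicate 1, 2 or 5, 2 were left without WT replicate 4 or *Wapl*Δ/+ replicate 4 or 5, and 7 were called without *Wapl*Δ/+ replicate 7, with *Ezh2* (0.23 ± 0.0503, SE), *Kdm6b* (0.22 ± 0.0512) and *Hdac5* (0.14 ± 0.0382) higher beside the 4 and 2.51% of all genes called. *Wapl*Δ/+ replicate 2, the library with high *Kat6a*, was picked out by values of the enzymes tested, so a fit without it is a description. Without it 13 enzymes were called, 3 higher and 10 lower, where 5.02% of all genes were called in the same fit, 1.81% higher. The 10 were *Kat6a* (log2 fold change -0.55 ± 0.0625, SE), *Kmt2a* (-0.43 ± 0.0477), *Ep300* (-0.33 ± 0.0502), *Crebbp* (-0.24 ± 0.0394), *Hdac9* (-0.22 ± 0.0585), *Kat6b*, *Kdm5c*, *Kmt2c*, *Nsd1* and *Ash1l*, and the 3 were *Setd1b* (0.20 ± 0.0510), *Kdm6b* (0.20 ± 0.0562) and *Hdac7* (0.16 ± 0.0344). Within the high *mt-Nd3* set (*Wapl*Δ/+ replicates 3 to 7 against WT replicates 4 and 5) *Kat6a*, *Kmt2a*, *Ep300* and *Crebbp* were called lower, with log2 fold changes of -0.54 ± 0.0701, -0.43 ± 0.0603, -0.35 ± 0.0669 and -0.32 ± 0.0492 (SE), and 0.91% of all genes were called there. Within the low set, which holds 2 *Wapl*Δ/+ libraries with replicate 2 among them, no member was called. With the set as a term, *Kat6a* and *Hdac7* were called. DESeq2 called 10 members and 4.73% of all genes, and a single fit of all 4 groups called no member and 0.0229% of all genes.

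Among the 52 members not called in *Wapl*Δ/+ brains, *Kdm6b* was the nearest to the threshold, at 0.19 ± 0.0551 (SE; edgeR adjusted *P* = 0.103). Its libraries ran between 5429.7 and 7366 (median 6246, n = 7), and replicate 5 was the highest of the group. *Setd1b* stood at 0.18 ± 0.0539, *Hdac9* at -0.20 ± 0.0580 and *Ezh2* at 0.18 ± 0.0689. The *Ezh2* counts spread from 1854 in replicate 7 to 2755 in replicate 5, on both sides of the WT range.

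**Figure D3:**
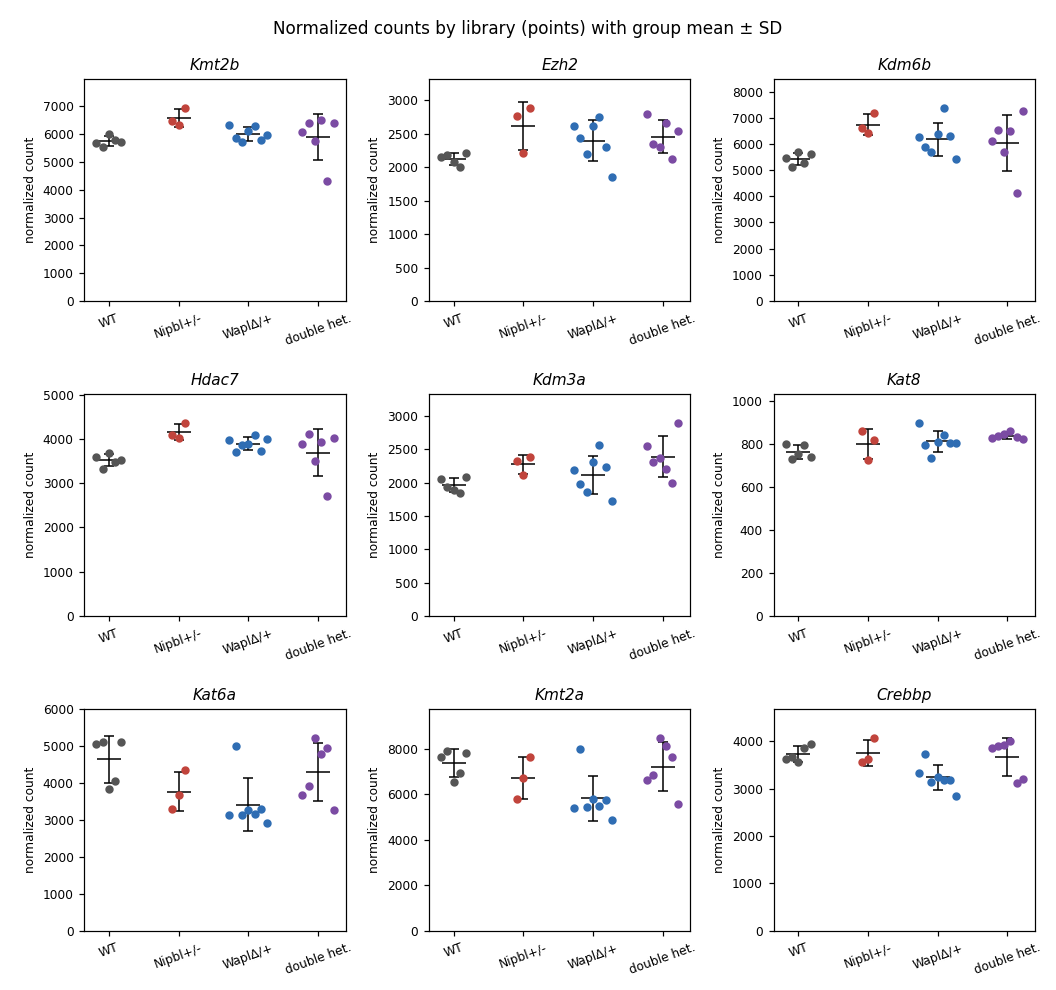
Normalized counts of 9 members in each library (points) with the group mean and SD (bar), for WT (n = 5), *Nipbl*+/- (n = 3), *Wapl*Δ/+ (n = 7) and double-heterozygote brains (n = 6). *Kdm6b* and *Hdac7* lay above WT in all 3 *Nipbl*+/- libraries, *Kat6a* and *Kmt2a* lay below WT in 6 of 7 *Wapl*Δ/+ libraries, and the lowest double-heterozygote point for *Kmt2b*, *Kdm6b* and *Hdac7* is replicate 5.

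Double heterozygotes had 4 enzymes that rose, none that fell and 52 that were not called against the same WT libraries, where 3.28% of all genes were called, 0.812% higher and 2.46% lower. Without adjustment, *P* was below 0.05 for 8 members that were higher and 1 that was lower, against 5.88% and 7.62% of all genes. The median log2 fold change was 0.04 over the members and 0.0007 over all genes. *Kdm3a* (chromosome 6, 71588970 to 71632990), the lysine 9 demethylase, ran between 1993 and 2899 (median 2343, n = 6) against 2062, 1932, 1893, 1846 and 2087 in WT. Only replicate 5 (1993) lay within the WT range, and replicate 6 (2899) was the highest of all 21 libraries. The log2 fold change was 0.29 ± 0.0667 (SE; edgeR adjusted *P* = 0.0284), and the call held without any single library. *Ezh2* ran between 2117 and 2791 (median 2442, n = 6) with replicate 5 within the WT range, a log2 fold change of 0.22 ± 0.0560 (SE; edgeR adjusted *P* = 0.0496).

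*Kdm7a*, an eraser of lysine 9 and 27 dimethylation, ran between 555 and 844 (median 683, n = 6) in double heterozygotes and had 629, 554, 534, 539 and 611 in WT, a log2 fold change of 0.28 ± 0.0765 (SE; edgeR adjusted *P* = 0.0712). Replicates 1 to 4 and 6 were above the WT range and replicate 5 was inside it. *Kat8*, which encodes the H4 lysine 16 acetyltransferase MOF, was the member with the least spread in this group. Its counts were 829.4, 838, 847, 860.5, 834 and 823, all above the highest WT library at 799.7, a log2 fold change of 0.14 ± 0.0402 (SE; edgeR adjusted *P* = 0.0811). *Hdac4* lay wholly below WT, between 1590.0 and 1738 against 1744 to 1798, but its difference of -0.08 ± 0.0355 was not called (edgeR adjusted *P* = 0.311). Over all genes 0.468% lay wholly above WT and 2.29% wholly below it.

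The count depended on double-heterozygote replicate 5. In that library *Kmt2d* had 5907 normalized counts against 9552 to 10713 in the other 5, *Kmt2b* 4311 against 5752 to 6497, and *Kdm6b* 4106 against 5688 to 7263. These were the lowest values of all 21 libraries for the 3 genes, and *Setd1a*, *Setd1b*, *Dot1l* and *Hdac7* were likewise lowest there. Replicate 5 was picked out by these values, so a fit without it is a description. Without it 15 members were called and all were higher, where 8.2% of all genes were called in the same fit, 3.37% higher. They were *Kmt2b*, *Kmt2d*, *Setd1a*, *Setd1b*, *Ehmt1*, *Ezh2*, *Dot1l*, *Kmt2e*, *Kdm3a*, *Kdm4a*, *Kdm5b*, *Kdm6b*, *Kdm7a*, *Kat8* and *Hdac7*, with log2 fold changes from 0.11 (*Kdm5b* and *Kdm4a*) to 0.34 (*Kdm3a*). Replicate 5 also had the highest summed level of the 11 neuronal markers in its group, 6547 CPM against 5856 to 5921 in the other 5, and the part of this in the result was not tested.

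Leaving out other libraries took calls away. A single call, *Kdm3a*, was left without WT replicate 3 or 4 or double-heterozygote replicate 1, 4 or 6, and 2 were left without WT replicate 1, 2 or 5. Within the low *mt-Nd3* set (double-heterozygote replicates 1 to 4 against WT replicates 1 to 3) 6 members were called, all higher, namely *Kdm3a* (0.28 ± 0.0509), *Kdm7a* (0.28 ± 0.0651), *Ezh2* (0.25 ± 0.0591), *Kdm6b* (0.20 ± 0.0498), *Kmt2d* (0.19 ± 0.0511) and *Kmt2e* (0.15 ± 0.0419, log2 fold change with SE), and 2.2% of all genes were called there, 0.619% higher. No member was called within the high set, where 2 double-heterozygote libraries, replicates 5 and 6, stood against 2 WT libraries and 0.00327% of all genes were called. With the set as a term the same 4 members as in the comparison of all libraries were called. A single fit of all 4 groups called 1 member and 1.97% of all genes.

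The libraries of a group were set side by side by the median log2 ratio to the WT mean over the 18 enzymes that had risen in *Nipbl*+/- brains. This list was chosen with the *Nipbl*+/- and WT libraries, and the same WT mean is the base of every ratio. A WT mean that was low by chance would raise the ratios in all mutant groups. The values of all groups are therefore descriptions, and no share of all genes stands beside them. WT libraries lay between -0.05 and 0.04, and *Nipbl*+/- libraries between 0.11 and 0.21. *Wapl*Δ/+ libraries lay between 0.0050 and 0.16, the highest being replicate 1 and the lowest replicate 7. Among double heterozygotes, replicates 1, 2, 4 and 6 lay between 0.13 and 0.18 with 18 of 18 genes above the WT mean. Replicate 3 lay at 0.0095 with 12 of 18 above it, and replicate 5 at -0.13 with 4 of 18 above it.

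**Figure D4:**
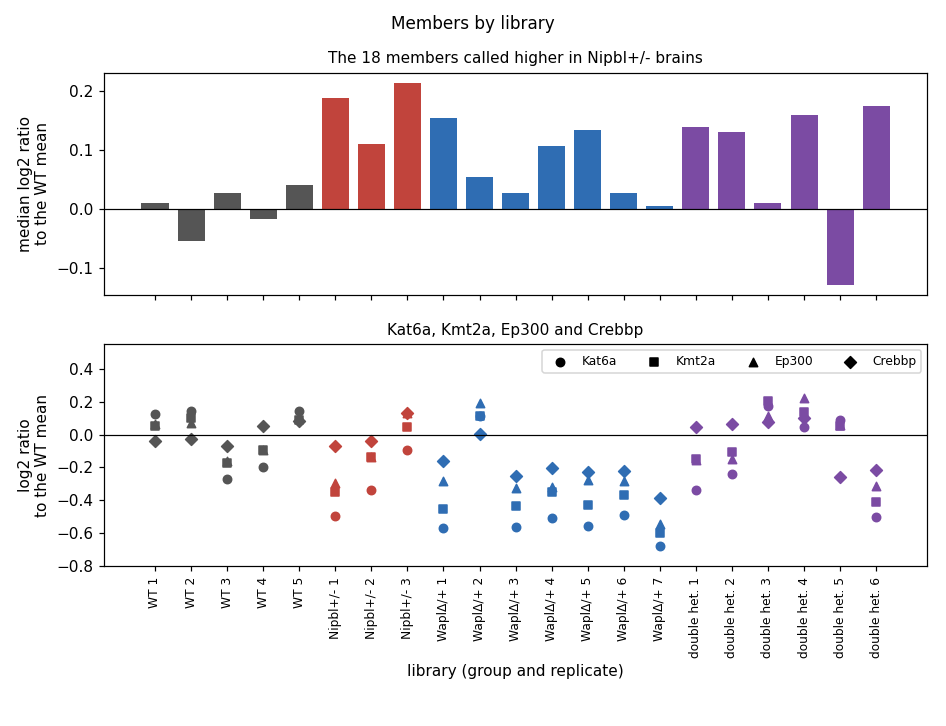
Top, median log2 ratio to the WT mean over the 18 members called higher in *Nipbl*+/- brains, 1 bar per library. Bottom, log2 ratio to the WT mean of *Kat6a*, *Kmt2a*, *Ep300* and *Crebbp* in the same libraries. Double-heterozygote replicate 5 is at -0.13 in the top panel, and *Wapl*Δ/+ replicate 2 is the only *Wapl*Δ/+ library with *Kat6a* above the WT mean.

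The 3 comparisons with WT share the same 5 WT libraries, so a WT library that is high or low moves all 3. Side by side, the log2 fold changes of *Kdm6b* were 0.31 in *Nipbl*+/-, 0.19 in *Wapl*Δ/+ and 0.16 in double heterozygotes. *Hdac7* gave 0.23, 0.15 and 0.08 in the same order, *Ezh2* 0.30, 0.18 and 0.22, and *Kdm3a* 0.21, 0.12 and 0.29. *Kat6a* gave -0.31, -0.44 and -0.10, and *Kmt2a* -0.14, -0.34 and -0.02. In all, 24 members were called in at least 1 of the 3 comparisons and 32 in none.

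Direct tests between mutant groups gave no called member. Between double heterozygotes and *Nipbl*+/- brains edgeR called 0 of 56 members (0.00655% of all genes), 0 had an unadjusted *P* below 0.05 (2.37% of all genes higher and 1.75% lower), and DESeq2 called 0. For 19 of the 20 enzymes called in *Nipbl*+/- brains the double-heterozygote mean lay between the WT and *Nipbl*+/- means, and for *Kdm3a* it lay beyond the *Nipbl*+/- mean. Of the 18 that had risen, 17 had a lower estimate in double heterozygotes than in *Nipbl*+/- (median log2 difference -0.09), but the genes were chosen for high values in the *Nipbl*+/- libraries that enter this difference. The smallest adjusted *P* of any member was 0.971 (edgeR), and the 95% interval of a member's log2 difference had a median half-width of 0.11, so differences of that median size were not detectable for most members. *Hdac7* had the largest negative difference, -0.17 ± 0.0931 (SE).

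Between double heterozygotes and *Wapl*Δ/+ brains edgeR again called 0 members, where 1.02% of all genes were called. At an unadjusted *P* below 0.05, 10 members were higher in double heterozygotes and none lower, against 4.54% and 5.4% of all genes, and DESeq2 called 1, *Kmt2c* (log2 difference 0.19), and 2.05% of all genes. The estimates with the smallest *P* were those of *Kmt2c* (0.20 ± 0.0556, SE; edgeR adjusted *P* = 0.151) and *Kmt2a* (0.32 ± 0.0976; edgeR adjusted *P* = 0.202), and *Kat6a* stood at 0.34 ± 0.115. *Kat6a* in double heterozygotes was 3668, 3926, 5218, 4784, 4931 and 3272, with replicates 3, 4 and 5 near the high WT libraries and replicates 1, 2 and 6 lower. Without *Wapl*Δ/+ replicate 2 edgeR called 3 members higher in double heterozygotes, *Kmt2a* (0.41 ± 0.0775, SE), *Kat6a* (0.46 ± 0.0878) and *Ep300* (0.31 ± 0.0733), and 1.46% of all genes. It called *Crebbp* alone without double-heterozygote replicate 5 (0.23 ± 0.0586) and *Kmt2a* alone without replicate 6 (0.38 ± 0.0911).

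*Nipbl*+/- and *Wapl*Δ/+ brains were compared directly as well. EdgeR called 0 members (1.16% of all genes), an unadjusted *P* below 0.05 was seen for 7 members higher in *Nipbl*+/- and 1 lower (4.82% and 5.49% of all genes), and DESeq2 called 1, *Kmt2d* (log2 difference 0.20), and 2.12% of all genes. The edgeR estimate for *Kmt2d* was 0.20 ± 0.0549 (SE; adjusted *P* = 0.129), and that for *Kmt2b* was 0.13 ± 0.0430 with no overlap between the groups. It was the 1 member of 56 that lay wholly above *Wapl*Δ/+, where 535 of 30552 genes did so, a like share. *Kat6a* differed by 0.14 ± 0.127 and *Crebbp* by 0.21 ± 0.0637. Neither difference was called. Without *Wapl*Δ/+ replicate 2, *Kmt2a*, *Kat6a* and *Crebbp* were called higher in *Nipbl*+/- (0.30 ± 0.0683, 0.26 ± 0.0660 and 0.25 ± 0.0534, SE), where 1.31% of all genes were called. *Kmt2d* alone was called without *Nipbl*+/- replicate 2 (0.24 ± 0.0616) or without *Wapl*Δ/+ replicate 1 (0.22 ± 0.0515).

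The interaction of the genotypes asks whether the change with *Wapl* loss is the same in *Nipbl*+/+ and *Nipbl*+/- brains. EdgeR called 0 of 56 members and 0 of all 30552 genes. At an unadjusted *P* below 0.05, 5 members had a positive and 16 a negative term, against 5.73% and 8.08% of all genes. DESeq2 called 5, *Kmt2c* (0.29), *Kat6a* (0.64) and *Hdac9* (0.28) with a positive term and *Ehmt2* (-0.15) and *Hdac7* (-0.31) with a negative one, where 2.6% of all genes were called by DESeq2. In edgeR the smallest *P* belonged to *Hdac7* (-0.34 ± 0.0994, SE; adjusted *P* = 0.200), and the largest term to *Kat6a* (0.61 ± 0.184; edgeR adjusted *P* = 0.200). A positive term means a double-heterozygote level above the sum of the 2 single changes on the log2 scale. EdgeR called 6 members without double-heterozygote replicate 6 (*Kmt2a* and *Kat6a* positive, *Ehmt2*, *Kdm6b*, *Hdac5* and *Hdac7* negative, 3.09% of all genes called), 2 without *Wapl*Δ/+ replicate 2 (*Kmt2a* and *Kat6a*, 0.828% of all genes called) and 0 in the other 19 fits that left out a library.

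Of 13 pairs of close relatives within a class, 7 had estimates of opposite sign in *Nipbl*+/- brains, 6 in *Wapl*Δ/+ brains and 4 in double heterozygotes. Some signs rest on estimates far smaller than their SE, such as *Suv39h2* (-0.0088 ± 0.0948) and *Crebbp* (0.0019 ± 0.0474) in *Nipbl*+/- brains. The counts are therefore descriptions. In *Nipbl*+/- brains *Kmt2b* rose by 0.19 while *Kmt2a* stood at -0.14, *Kmt2d* rose by 0.21 while *Kmt2c* stood at -0.10, *Ezh2* rose by 0.30 while *Ezh1* stood at -0.06, and *Hdac5* rose by 0.17 while *Hdac4* fell by 0.12. In *Wapl*Δ/+ brains *Kmt2a* and *Kmt2b* gave -0.34 and 0.07, and *Kmt2c* and *Kmt2d* -0.14 and 0.02. In double heterozygotes the last pair had the same sign, with both genes at 0.05, and *Ezh1* and *Ezh2* gave 0.0028 and 0.22. Other pairs had estimates of the same sign, such as *Setd1a* and *Setd1b* (0.15 and 0.21 in *Nipbl*+/-), *Ehmt1* and *Ehmt2* (0.14 and 0.13), and *Kat6a* and *Kat6b* (-0.44 and -0.14 in *Wapl*Δ/+). The differences within pairs were not tested.

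These pairs also differed in the length of the gene. *Kmt2a* spans 78.0 kb and *Kmt2b* 20.2 kb, *Kmt2c* 227 kb and *Kmt2d* 42.4 kb, and *Hdac4* 267 kb and *Hdac5* 34.4 kb. In these pairs the longer gene had the lower estimate in *Nipbl*+/- and *Wapl*Δ/+ brains. The order was the other way for *Ezh1* and *Ezh2*, at 35.3 and 65.0 kb, and for *Kat6a* and *Kat6b*, at 83.8 and 173 kb, where the shorter gene had the lower estimate. Over the 13 pairs the longer gene had the lower estimate in 7 in *Nipbl*+/-, 8 in *Wapl*Δ/+ and 4 in double heterozygotes. The 18 members called higher in *Nipbl*+/- brains had a median span of 41.4 kb, the 36 not called 68.0 kb, and the 2 called lower spanned 83.8 and 267 kb. The 3 called lower in *Wapl*Δ/+ brains spanned 78.0, 83.8 and 133 kb.

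**Figure D5:**
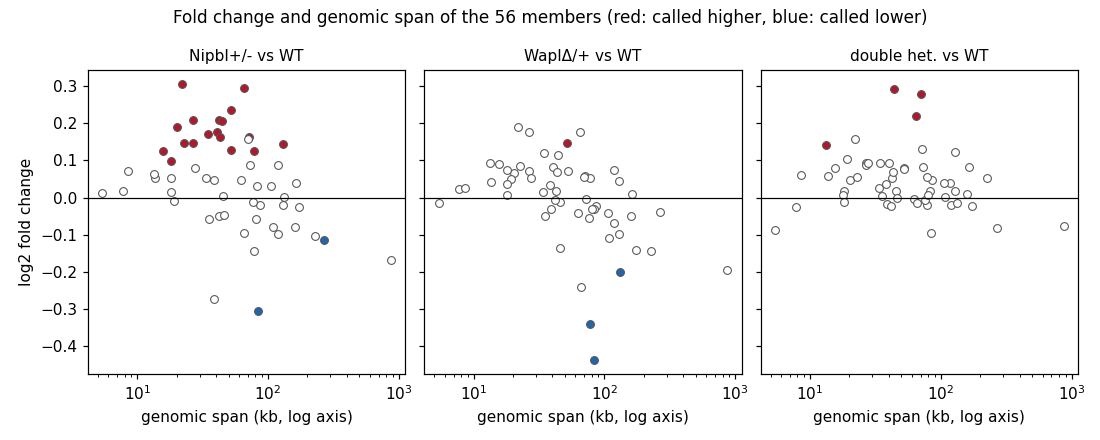
Log2 fold change against WT (vertical axis) and genomic span in kb (horizontal log axis) of the 56 members in *Nipbl*+/-, *Wapl*Δ/+ and double-heterozygote brains, with called genes in red (higher) or blue (lower). Spearman's correlation is -0.43, -0.56 and -0.24 from left to right, and the called decreases lie at spans of 78.0 kb or more.

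Across the 56 members Spearman's correlation of log2 fold change with span was -0.43 in *Nipbl*+/-, -0.56 in *Wapl*Δ/+ and -0.24 in double heterozygotes. Over 13427 genes with a known span and a mean of at least 100 normalized counts it was -0.30, -0.36 and -0.29 in the same order, so the tilt was present over the transcriptome too. Genes are not independent replicates, the comparisons share WT, and the correlations are descriptions. After a trend on span had been removed from each library, 22 members were called in *Nipbl*+/- brains (21 higher), 3 in *Wapl*Δ/+ brains and 6 in double heterozygotes. The share of all genes called in those fits is not given, so these counts are not set against a background.

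Genes of the same pathways that are not among the 56 came from 3 lists, chosen with earlier results of these data known. Of all genes 4.25% were called higher in *Nipbl*+/- brains, 0.769% in *Wapl*Δ/+ brains and 0.812% in double heterozygotes. In *Nipbl*+/- brains the median SE was 0.044 in each of the first 2 lists and 0.15 over all tested genes. A change of a given size was thus called more readily in these lists. Other histone-modifying enzymes, such as protein arginine methyltransferases and sirtuins, had 5 of 29 genes called higher and none lower in *Nipbl*+/- brains, with *Phf2*, a lysine 9 demethylase (0.25 ± 0.0404), *Sirt6*, a deacetylase of H3 lysine 9 (0.21 ± 0.0468), and *Kmt5c*, which methylates H4 lysine 20 (0.17 ± 0.0414), as those of smallest *P*. Of these only *Kmt5c* was called in *Wapl*Δ/+ brains (0.17 ± 0.0431), and none of the 29 in double heterozygotes. A list of subunits of methyltransferase complexes had 2 of 16 called higher in *Nipbl*+/- brains, *Jarid2*, a Polycomb partner of EZH2 (0.21 ± 0.0394), and *Kansl1*, a scaffold of the KAT8-containing NSL complex (0.11 ± 0.0361, log2 fold changes with SE), and none in the other groups. The list holds *Kansl1* although NSL is an acetyltransferase complex.

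Subunits of acetyltransferase and deacetylase complexes had 11 of 26 called higher and 1 lower in *Nipbl*+/- brains, a larger share than the 4.25% of all genes called higher. The list was chosen with earlier results of these data known, so this share is a description. Its median SE was 0.047, against 0.15 over all tested genes. *Rcor2*, a CoREST subunit that binds KDM1A, had the largest log2 fold change (0.42 ± 0.0720, SE), followed in *P* by *Sin3a*, the scaffold of the SIN3 deacetylase complex (0.23 ± 0.0471), and *Epc1*, a TIP60 subunit (0.15 ± 0.0352). *Ncor1*, the corepressor that activates HDAC3, was the 1 that fell (-0.21 ± 0.0590). In *Wapl*Δ/+ brains *Mta1*, a NuRD subunit, rose (0.13 ± 0.0372) and *Ep400* and *Ncor1* fell (-0.30 ± 0.0796 and -0.25 ± 0.0664). In double heterozygotes *Epc1* and *Epc2* rose (0.17 ± 0.0340 and 0.12 ± 0.0366).

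Markers of cell types moved in the same comparisons, and their part in the enzyme results was not tested. Of all genes 6.96% were called lower in *Nipbl*+/- brains, 1.45% in *Wapl*Δ/+ brains and 2.46% in double heterozygotes. In the same order 4.25%, 0.769% and 0.812% were called higher. The markers were chosen with earlier results of these data known, so their counts are descriptions. In *Nipbl*+/- brains 7 of 10 markers of astrocytes and the oligodendrocyte lineage were called lower, and their summed level was 565 to 676 CPM against 729.9 to 778 in WT. The same list had 8 of 10 called lower in double heterozygotes (576 to 692) and none called in *Wapl*Δ/+ brains (614 to 787). Progenitor markers had 4 of 10 called higher (*Notch1*, *Sox2*, *Eomes* and *Nes*) and 1 lower (*Fabp7*) in *Nipbl*+/- brains, but their sum of 1087 to 1312 overlapped the WT range of 1155 to 1195. None of the 10 was called in *Wapl*Δ/+ brains (1184 to 1334) or in double heterozygotes (1102 to 1279). Neuronal markers had 3 of 11 called lower in *Nipbl*+/- brains (5753 to 6039 against 6054 to 6392 in WT), none in *Wapl*Δ/+ brains and 1 in double heterozygotes. Markers of microglia had 4 of 7 called lower in *Nipbl*+/- (66.7 to 79.9 against 84.7 to 97.2), and *Wapl*Δ/+ brains had 3 of 9 endothelial and meningeal markers called higher (741 to 1185 against 694 to 858). Of 5 choroid plexus markers *Otx2* was called higher in *Nipbl*+/- brains and in double heterozygotes. Of 5 markers of skeletal muscle and skin *Krt5* was called higher in *Nipbl*+/- brains, of 4 pituitary markers *Gh* was called lower in *Wapl*Δ/+ brains, and none of 5 erythroid markers was called. *Krt5* was near the floor, with at most 1.31 CPM in *Nipbl*+/- and 0.196 in WT libraries. The pituitary sum was 70.6 CPM in WT replicate 2 and at most 0.156 in the other WT libraries, so the *Gh* call rested on 1 library. *Nipbl*+/- brains had 1 of 9 endothelial and meningeal markers (*Col3a1*) called higher, and double heterozygotes had 1 of 7 microglial markers (*Cx3cr1*) called lower.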

How the data were processed

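Polyadenylated RNA of 21 whole brains was sequenced, and the authors deposited 1 table of raw read counts per gene, which per the labels came from cutadapt 2.4, STAR 2.5.3a and featureCounts of Subread 1.6.4 on mm10/GRCm38.p6, with a summary by MultiQC 1.9. The strand setting and the handling of reads with several matches are not given in the sources used here, so reads of overlapping or antisense genes cannot be told apart and close paralogues may share reads. Library groups came from the sample labels. The 56 genes, the pathway lists and the marker lists were chosen with earlier results of these data known. A gene was tested when its normalized counts over all libraries came to 10 or more (30552 genes). Each comparison was fitted in R 4.3.3 by edgeR 4.0.16 (TMM, quasi-likelihood test) on the libraries of the groups compared, and on all libraries for the interaction, with Benjamini-Hochberg adjustment over all genes and a threshold of 0.10. All members could be named. For the called members of smallest *P* in each comparison with WT and in each class, values were given for every library or as a range with the median. Of the pathway lists, the 3 called genes of smallest *P* were named. Fits were tested on simulated data. DESeq2 1.42.0, other filters, scalings, thresholds and sample sets, a replicate block and a gene span offset were tried as alternatives. Spans and coordinates came from a RefSeq gene table of GRCm38.p6, where all 56 matched. Libraries of 1 group differed by more than sampling noise in all 49 pairs, so none was counted as a repeat. Replicate numbers were used only as names: in 25 pairs of same-numbered libraries of different groups the correlation of deviations ran from -0.27 to 0.44, and 8 were over 0.1.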

Additional observations from a re-analysis of the deposited data

Results flagged for a closer look

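Of 13 genes tested in 39 groups of 4 or more libraries, 3 had a library far from the rest of its group. Chance alone sets a library apart in about 1 of 20 such groups. *Kmt2b* in double-heterozygote replicate 5 had 4311 normalized counts, and the nearest of the other 5 libraries had 5752. *Kat6a* in *Wapl*Δ/+ replicate 2 had 4998 normalized counts, and the nearest of the other 6 had 3295. *Kmt2a* in the same library had 7987 normalized counts, and the nearest of the other 6 had 5796.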

How the results depend on the processing

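In *Nipbl*+/- against WT, 20 members were called, 9 in a single fit of all 4 groups and 12 with the low *mt-Nd3* libraries alone, and 14 to 22 when 1 library was left out. Apart from the replicate block, the other alternatives gave 15 to 22. In *Wapl*Δ/+ against WT, 4 were called, 10 by DESeq2, 8 with no filter on low counts, 0 at an adjusted *P* below 0.05, 0 in a single fit of all groups, 2 with the *mt-Nd3* set as a term, 0 with the low *mt-Nd3* libraries alone, 2 and 11 with the libraries whose label writes the *Wapl* deletion first and second, and 0 to 13 when 1 library was left out. In double heterozygotes against WT, 4 were called, 2 at an adjusted *P* below 0.05, 1 in a single fit of all groups, 0 with the high *mt-Nd3* libraries alone, 10 and 1 with the deletion written first and second, and 1 to 15 when 1 library was left out. Double heterozygotes against *Wapl*Δ/+ gave 0 called members, 1 by DESeq2, in a single fit of all groups and with a gene span offset, and 0 to 3 without 1 library. *Nipbl*+/- against *Wapl*Δ/+ gave 0, 1 by DESeq2 and with a gene span offset, 2 with no filter, and 0 to 3 without 1 library. The interaction gave 0, 5 by DESeq2, and 0 to 6 without 1 library. Double heterozygotes against *Nipbl*+/- gave 0 in every alternative run. *Hdac4* in *Nipbl*+/- reversed to a log2 fold change of 0.010 with a gene span offset. The WT sum of lysine 9 and 27 methyltransferases was 740.3 CPM on total counts against 744, and on total counts the double heterozygotes no longer overlapped WT in this sum. The mutant libraries with the deletion written first and second are those of the low and high *mt-Nd3* sets, set here against all 5 WT libraries, and the labels do not say what the order marks. The cause of these changes was not tested, beyond the fewer libraries or the stricter threshold that some settings impose. Counts here, with the replicate block, and above where no share of all genes stands beside them, have no background. Taken alone, they do not tell a change among members from a change in calls over all genes.

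With the replicate block, 11 members were called in *Nipbl*+/-, 11 in *Wapl*Δ/+ and 1 in double heterozygotes against WT, and 0 in the comparisons between mutant groups and in the interaction. Of 25 same-numbered pairs 8 correlated over 0.1 and in 5 the same-numbered library was the best partner. The replicate 1 libraries of the 3 mutant groups correlated at 0.34 to 0.44 with one another. Not every pair was over 0.1, so the numbers were not taken as pairs, and the labels do not say whether they mark a shared litter.

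For single called members, 284 of 360 alternative values kept direction and call in *Nipbl*+/-, 75 lost the call and 1 reversed. In *Wapl*Δ/+ 62 of 100 kept both and 38 lost the call, and in double heterozygotes 56 of 96 kept both and 40 lost the call. The 95% interval of a member's log2 difference had a median half-width of 0.08 to 0.14 over the 7 comparisons, which limits what could be detected.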
